A study of Mus musculus with 18 samples.

Results

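The growth factors of the PDGF, TGF-beta, VEGF and IGF families and the PDGF receptors were followed in 3 populations of lung macrophages of WT and Ezr-KOm mice. The set held 10 genes, chosen by name from the 21254 genes of the deposited table: the PDGF ligands Pdgfa, Pdgfb and Pdgfc, the receptors Pdgfra and Pdgfrb, the TGF-beta ligands Tgfb1, Tgfb2 and Tgfb3, and Vegfa and Igf1. All 10 were among the 15811 genes with enough counts to be tested, and each had at least 1 count in every library.

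The cells were sorted from perfused, digested lungs 24 h after a nebulization of 15 min with 12.5 mg of LPS, the endotoxin of Pseudomonas aeruginosa, in 5 ml of PBS. All cells were CD45+CD11b+, and the gates divided them into moMs (monocyte-derived macrophages, MHC-II-Ly6C+), tnsIMs (transitional interstitial macrophages, MHC-II+Ly6C+) and matIMs (mature interstitial macrophages, MHC-II+Ly6C-). WT mice carried the B6.Cx3cr1tm1.1(cre)Jung/J allele with intact ezrin genes, and Ezr-KOm mice carried the same Cre with B6.Ezfl/fl, so every animal had Cre in cells that use the Cx3cr1 promoter, a site also active in some dendritic cells. Mice were of both sexes and 3 to 5 months of age, all received LPS. With 3 populations and 2 genotypes there were 6 groups, each with 3 libraries numbered 1 to 3. The study states 3 mice per genotype, so the 9 libraries of a genotype came from 3 mice, and the number was taken to mark the mouse.

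Platelet-derived growth factors are secreted dimers that drive the growth and migration of fibroblasts, pericytes and smooth muscle cells. They act through the tyrosine kinase receptors PDGFR-alpha, the classical receptor of lung fibroblasts, and PDGFR-beta, a receptor of pericytes. TGF-beta is secreted in a latent complex, is held by binding proteins in the matrix or on the cell surface, is released by integrins, proteases or thrombospondin, and signals through Smad proteins to raise matrix production and restrain inflammation. VEGF-A drives the growth of vessels and is induced by hypoxia, and IGF-1 is a growth and survival factor that tissue macrophages supply to epithelium and muscle during repair.

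The promoters of Pdgfra, Pdgfc, Igf1 and Tgfb1 are shown because of their genes' values below: Pdgfra had the smallest p between genotypes, Pdgfc the largest difference between populations, Igf1 a rise towards matIMs and Tgfb1 the highest level. Each line gives the 250 bases before the gene start from RefSeq (GRCm38.p6, plus strand), at chr5:75152001-75152250 for Pdgfra, chr3:81036166-81036415 for Pdgfc, chr10:87860861-87861110 for Igf1 and chr7:25686752-25687001 for Tgfb1, with motif matches in capitals.
Pdgfra: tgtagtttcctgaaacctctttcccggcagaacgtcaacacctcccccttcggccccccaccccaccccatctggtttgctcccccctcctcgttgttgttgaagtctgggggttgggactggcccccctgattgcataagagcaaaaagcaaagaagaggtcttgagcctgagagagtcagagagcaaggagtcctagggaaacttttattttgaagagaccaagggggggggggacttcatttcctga
Pdgfc: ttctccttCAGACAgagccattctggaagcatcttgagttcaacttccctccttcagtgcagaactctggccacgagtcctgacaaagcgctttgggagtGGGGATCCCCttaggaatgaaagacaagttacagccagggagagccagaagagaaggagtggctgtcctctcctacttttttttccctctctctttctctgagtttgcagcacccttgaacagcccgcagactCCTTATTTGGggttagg
Igf1: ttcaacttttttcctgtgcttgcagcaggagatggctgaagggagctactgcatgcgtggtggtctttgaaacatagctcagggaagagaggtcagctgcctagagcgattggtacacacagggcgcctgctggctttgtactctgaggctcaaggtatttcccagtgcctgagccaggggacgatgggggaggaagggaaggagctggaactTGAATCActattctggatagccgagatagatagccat
Tgfb1: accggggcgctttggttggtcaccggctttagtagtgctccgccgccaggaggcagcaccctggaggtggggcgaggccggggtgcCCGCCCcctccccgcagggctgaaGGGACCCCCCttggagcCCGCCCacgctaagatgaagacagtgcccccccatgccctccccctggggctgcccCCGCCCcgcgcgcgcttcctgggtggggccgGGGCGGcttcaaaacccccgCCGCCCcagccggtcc

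The letters searched on both strands were AP-1 (TGANTCA), the core of the hypoxia response element (ACGTG), the SMAD CAGA box (CAGACA), the TATA box (TATAAA), Sp1 (GGGCGG), the CArG box of serum response factor and the NF-kappaB motif, and matches to different motifs could overlap. Pdgfra held none of these letters in this window. Pdgfc held a CArG box 17 bases before the start, which 1.47% of 32851 promoters of the same length also held, an NF-kappaB motif at 150 bases (7.25% of promoters) and a SMAD CAGA box at 242 bases (17.1%). Igf1 held an AP-1 motif at 37 bases (6.75%). Tgfb1 held 5 Sp1 motifs (32.7% of promoters held at least 1) and an NF-kappaB motif, and its window was 75.2% G and C against a median of 52.4% over all promoters. The promoters searched were 9 of 7 members, with Pdgfa, Tgfb2 and Vegfa beside those printed. Pdgfb and Tgfb3 had no entry, and that of Pdgfrb was not used here.

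Library totals ranged from 16512783 counts (WT tnsIM replicate 2) to 48460995 (Ezr-KOm tnsIM replicate 2), and 3 counts corresponded to between 0.0599 and 0.19 CPM, the library-scaled count. Only Pdgfc had libraries at or under 3 counts, with 2 of them. Ezr, the targeted gene, averaged 531 CPM in WT and 232 CPM in Ezr-KOm moMs, 586 and 191 CPM in tnsIMs, and 662 and 135 CPM in matIMs (log2 differences of -1.20, -1.62 and -2.29, adjusted p = 0.0549, 0.00365 and 7.73e-05). The gates were visible in the RNA of WT libraries: H2-Aa of MHC class II went from a mean of 546 CPM in moMs over 4520 CPM (tnsIMs) to 6608 CPM (matIMs), while Ly6c2 went from 481 over 219 to 51.2 CPM. The summed dendritic cell markers were at 83.3 to 124 CPM in WT moMs, 308 to 555 CPM in WT tnsIMs and 5500 to 7600 CPM in WT matIMs (Ccr7, Fscn1 and Ccl22 among the 8), while the macrophage genes Lyz2 and Csf1r were present in all libraries and had their lowest WT mean in matIMs. Summed B cell markers were at 102 to 176, 118 to 161 and 429 to 588 CPM over the same WT populations.

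The members spanned a wide range of levels. Per length, as RPKM (CPM divided by merged exon length in kilobases), Tgfb1, Vegfa and Pdgfb were the 3 highest in that order in all 6 groups, with group means of 56.5 to 87.9 RPKM for Tgfb1, 35 to 67.3 RPKM for Vegfa and 1.95 to 6.48 RPKM for Pdgfb. Tgfb1 and Vegfa overlapped within 1 SD in every group but Ezr-KOm moMs (74.2 ± 20.4 and 67.3 ± 26.5 RPKM in WT tnsIMs, mean ± SD, n = 3), while the step from Vegfa down to Pdgfb exceeded the spread in every group. The length used moved these levels: by the longest transcript, Tgfb1 and Vegfa were still the highest, and overlapped in 1 group alone (146 ± 40.2 and 81.8 ± 32.2 RPKM in WT tnsIMs). By that length Pdgfa at 3.17 RPKM stood above Pdgfb at 2.61 RPKM in WT moMs. The lowest mean belonged to Pdgfc in moMs and tnsIMs and to Tgfb2 in matIMs, and by the longest transcript to Tgfb2 in every group but WT moMs. Pdgfa, Igf1, Pdgfrb and Pdgfra lay between, and their order changed with the population: Pdgfrb stood above Igf1 in tnsIMs (1.99 ± 0.788 and 1.22 ± 0.37 RPKM in WT, overlapping within 1 SD) and well below it in matIMs (0.399 ± 0.091 and 2.14 ± 0.775 RPKM in WT). All values below in CPM compare a gene with itself between groups, not with other genes.

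**Figure D1:**
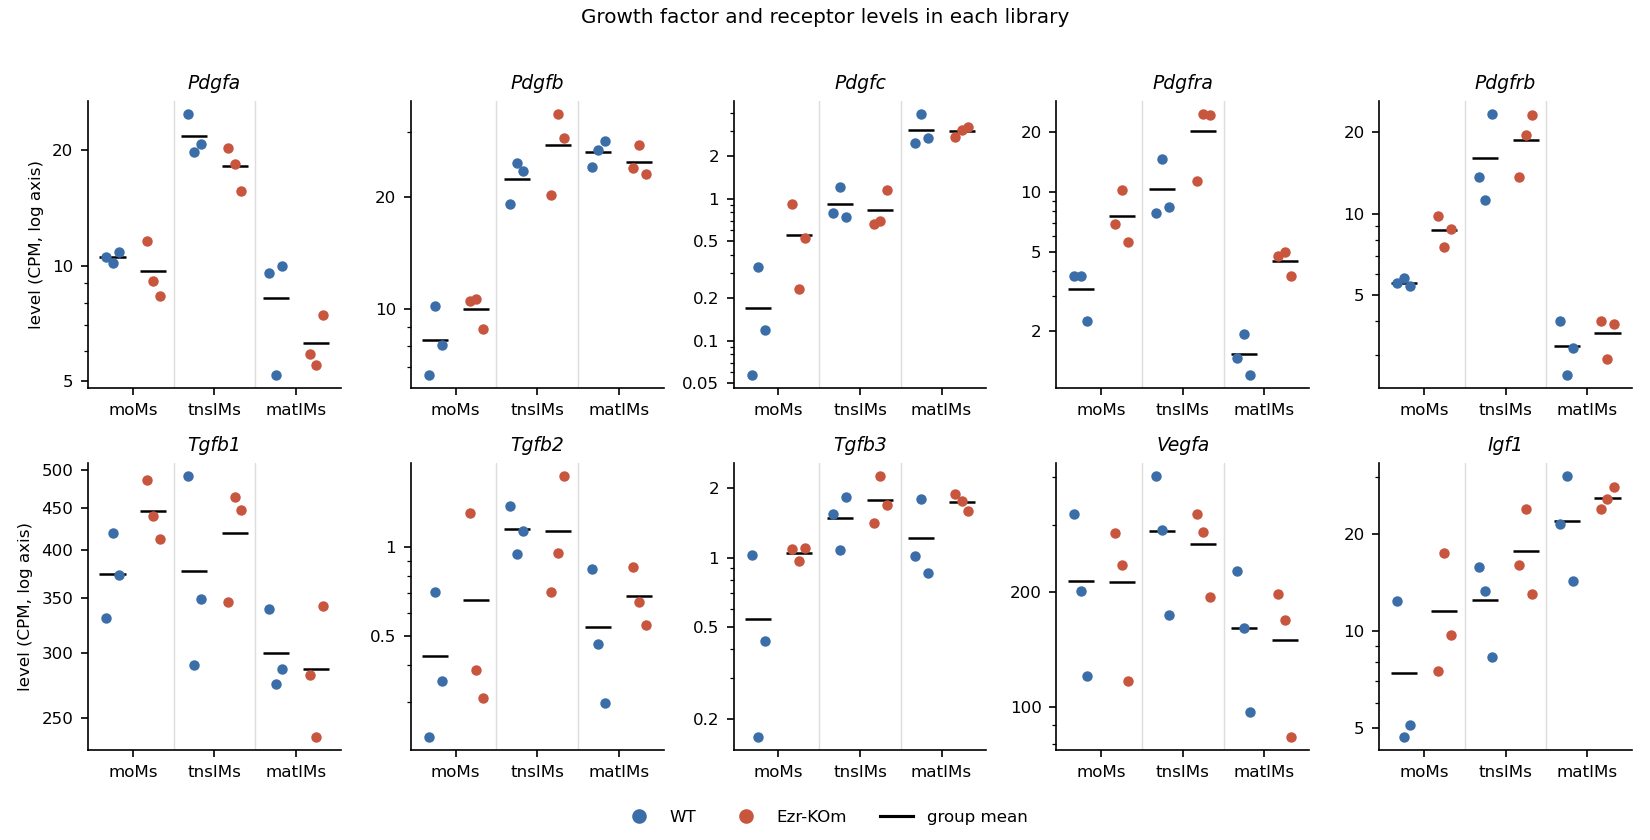
Level of each of the 10 genes in CPM on a log axis, in WT (blue) and Ezr-KOm (red) libraries of moMs, tnsIMs and matIMs, with 3 libraries a group as points and the group mean as a bar. The mean of Pdgfra lies higher in Ezr-KOm than in WT within each population, with overlapping libraries in tnsIMs and no difference that passed in edgeR. Pdgfa, Pdgfra and Pdgfrb peak in tnsIMs, and Pdgfc and Igf1 climb from moMs to matIMs.

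The first question was whether loss of ezrin altered these genes. None of the 10 members passed an adjusted p of 0.05 between Ezr-KOm and WT in moMs, tnsIMs or matIMs (edgeR), where 0.171%, 0.164% and 0.152% of all genes tested did. At an unadjusted p under 0.05 there were 3, 1 and 1 members beside 592, 512 and 607 of the 15811 genes, and DESeq2 called 0, 0 and 1 beside 55, 55 and 52. The study counted genes with an unadjusted p below 0.05 whose log2 change exceeded 0.75 in either direction. By that rule applied to the fit used here, the members were Pdgfra and Pdgfc in moMs, Pdgfra in tnsIMs and Pdgfra in matIMs, beside 2.51%, 1.83% and 2.4% of all genes. The study itself reports more TGF-beta 3 ligand in Ezr-KOm moMs and names Pdgf-alpha among genes raised in Ezr-KOm tnsIMs. Here Tgfb3 had a log2 difference of 1.00 in moMs (unadjusted p = 0.0524 in edgeR). In tnsIMs Pdgfa had a log2 difference of -0.27, with overlapping groups (unadjusted p = 0.229 in edgeR). The alpha receptor Pdgfra had one of 0.98 there (unadjusted p = 0.00633 in edgeR). The 3 Ezr-KOm libraries lay outside the range of the 3 WT libraries for Pdgfra and Pdgfrb in moMs, no member in tnsIMs and Pdgfra in matIMs, where 8.52%, 5.81% and 10.1% of all genes did.

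Pdgfra, the alpha receptor (ENSMUSG00000029231, chr5:75312953-75358876, plus strand, GRCm39), had the smallest p of any member in each of the 3 populations. In moMs, WT libraries were at 3.76, 3.77 and 2.24 CPM and Ezr-KOm libraries at 6.92, 10.2 and 5.6 CPM. In matIMs, WT libraries were at 1.46, 1.92 and 1.19 CPM and Ezr-KOm libraries at 4.73, 4.95 and 3.77 CPM. In tnsIMs, WT libraries were at 7.84, 14.6 and 8.42 CPM and Ezr-KOm libraries at 11.4, 24.5 and 24.5 CPM. All Ezr-KOm libraries were above all WT libraries in moMs and in matIMs, and the groups overlapped in tnsIMs through WT replicate 2 and Ezr-KOm replicate 1. Replicate 2 was the highest library in all 6 groups. The log2 differences were 1.22 ± 0.33 (SE, n = 3 and 3) in moMs, 0.98 ± 0.32 in tnsIMs and 1.56 ± 0.35 in matIMs, with adjusted p = 0.368, 0.935 and 0.147 in edgeR. DESeq2 gave an adjusted p of 0.005 in matIMs, and 0.088 and 0.496 in moMs and tnsIMs. With the library number as a block, the edgeR differences were 1.21, 1.01 and 1.58, with adjusted p = 0.0892, 0.206 and 0.019, so that matIMs passed. Between libraries of the same number, Ezr-KOm was higher in 3 of 3 pairs of each population. The ratios were 1.84 to 2.71 in moMs, 1.45 to 2.9 in tnsIMs and 2.58 to 3.23 in matIMs. In moMs and matIMs any pairing would give 3 of 3, since the groups did not overlap. These pairs come from the same 3 mice of each genotype.

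Because PDGFR-alpha marks fibroblasts, the fibroblast genes of the same libraries were set beside it. Over the 10 fibroblast markers, 8, 9 and 8 had a positive log2 difference in moMs, tnsIMs and matIMs, with medians of 0.48, 0.27 and 0.33 against 0.00 over all genes tested, and 0 passed an adjusted p of 0.05. Their sum was at 48.6 to 85.3 CPM in WT and 55.3 to 78.2 CPM in Ezr-KOm moMs, 137 to 158 and 144 to 200 CPM in tnsIMs, and 32.2 to 45.9 and 36.5 to 44.2 CPM in matIMs, and no marker was at 0 in every library of a group. Within the sum Pdpn, which macrophages also express, went the other way (26 and 8.43 CPM in moMs, log2 difference -1.62, adjusted p = 0.404). Col1a1, a chain of type I collagen, averaged 3.56 and 7.56 CPM in WT and Ezr-KOm moMs (log2 difference 1.08, adjusted p = 0.407), and Inmt 4.67 and 8.56 CPM (0.88, adjusted p = 0.335). Set against the summed CPM of Col1a1, Col1a2 and Col3a1, a measure chosen after the values were seen, Pdgfra stood at 13.6% to 16% in WT and 17.7% to 33.2% in Ezr-KOm moMs, 10.2% to 18.1% and 16.1% to 28.7% in tnsIMs, and 9.26% to 12.2% and 18.9% to 27.7% in matIMs. The Ezr-KOm shares lay above the WT shares in moMs and matIMs and overlapped them in tnsIMs, and the part of fibroblast RNA in the Pdgfra difference was not tested. In bulk libraries of sorted cells, fewer cells of a type and less RNA per cell cannot be told apart.

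**Figure D2:**
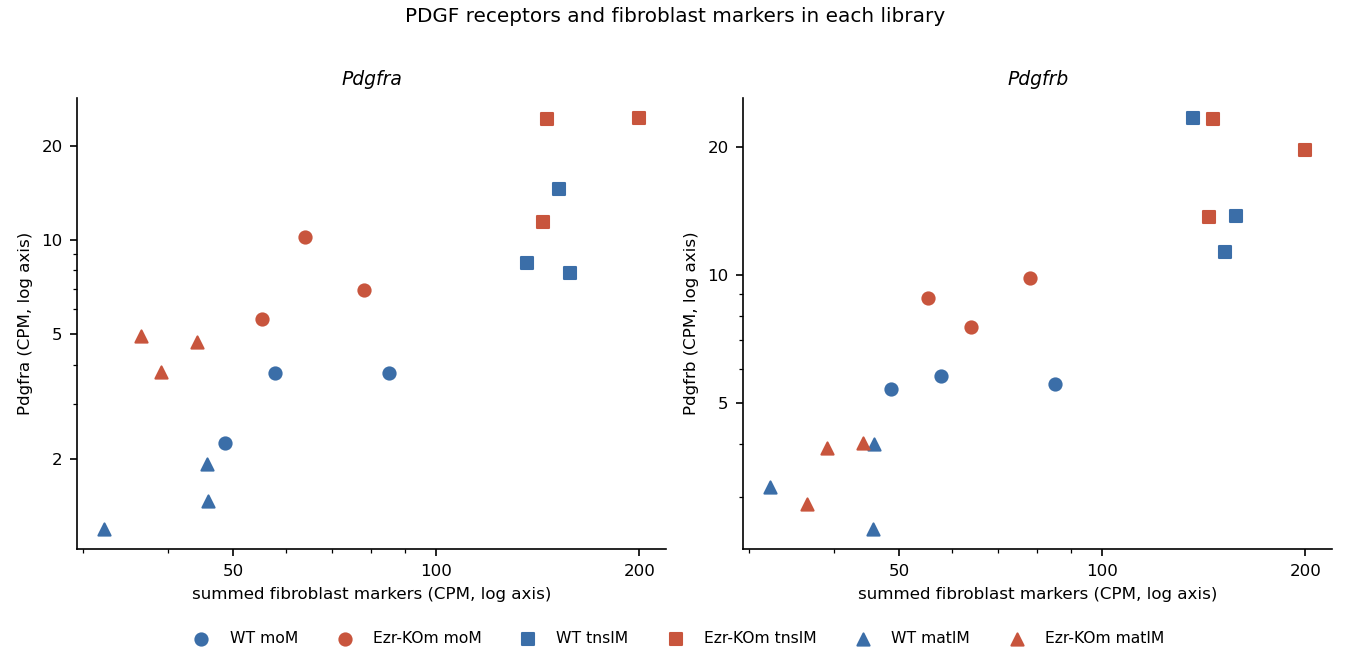
Pdgfra and Pdgfrb in CPM against the summed CPM of the 10 fibroblast markers in each of the 18 libraries, both axes log, colored by genotype and with a symbol for each population. Within a genotype, the tnsIM libraries lie above and to the right of the others for both receptors, with 137 to 200 CPM of markers. The Ezr-KOm points of Pdgfra lie above the WT points of the same population in moMs and matIMs.

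Pdgfrb, the beta receptor (ENSMUSG00000024620, chr18:61178222-61218133, plus strand), differed less between genotypes. In moMs it was at 5.52, 5.76 and 5.39 CPM in WT and 9.83, 7.52 and 8.81 CPM in Ezr-KOm libraries, without overlap, a log2 difference of 0.65 ± 0.26 (lower bound of the 95% interval 0.10, adjusted p = 1 in edgeR). In tnsIMs and matIMs the genotypes overlapped. As a percentage of the same 3 collagens, Pdgfrb overlapped between genotypes in all 3 populations. All 8 pericyte and smooth muscle markers had a positive difference in moMs as well (median log2 difference 0.35, summed CPM of 11.8 to 13.1 in WT and 13.2 to 16.3 in Ezr-KOm), with 0 called, and their part in the Pdgfrb value was not tested.

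**Figure D3:**
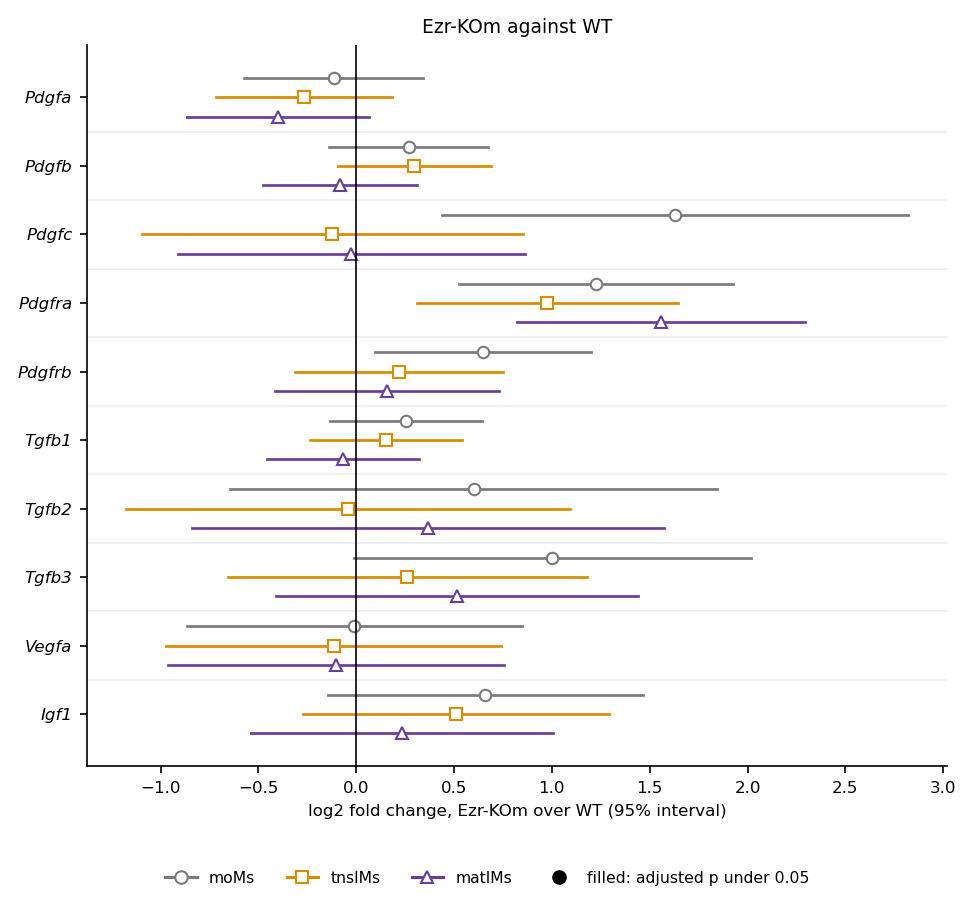
Log2 difference between Ezr-KOm and WT for each of the 10 genes in moMs, tnsIMs and matIMs, with 95% intervals from edgeR and open points where the adjusted p was not under 0.05. Every point is open, and the intervals of Pdgfra lie above 0 in all 3 populations (0.53 to 1.92, 0.31 to 1.64 and 0.82 to 2.30).

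Among the ligands, Pdgfc (ENSMUSG00000028019, chr3:80943723-81121347, plus strand), which encodes a chain that needs proteolytic activation, had 1, 8 and 3 counts in WT moMs and 21, 6 and 12 counts in Ezr-KOm moMs. The log2 difference was 1.63 ± 0.57 (95% interval 0.44 to 2.82, adjusted p = 0.895 in edgeR) at these low counts, and the groups overlapped. Leaving out single libraries moved it between 1.06 and 2.54. In tnsIMs and matIMs the Pdgfc differences were -0.12 ± 0.46 and -0.03 ± 0.42. Tgfb3 had 18, 4 and 11 counts in WT moMs and 25 in each of the 3 Ezr-KOm libraries, 0.541 ± 0.44 and 1.05 ± 0.0757 CPM (SD), which overlapped through WT replicate 1 at 1.02 CPM, with a log2 difference of 1.00 ± 0.48 (95% interval -0.01 to 2.02, adjusted p = 1).

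The abundant ligands showed no genotype difference that passed, and their 95% intervals limit its size. For Tgfb1 the log2 interval was -0.13 to 0.64 in moMs, -0.23 to 0.54 in tnsIMs and -0.45 to 0.32 in matIMs. For Pdgfa it was -0.57 to 0.34, -0.71 to 0.18 and -0.86 to 0.07. For Pdgfb the differences were 0.27, 0.30 and -0.08, with intervals of -0.14 to 0.67, -0.09 to 0.69 and -0.47 to 0.31. Ezr-KOm was higher in 3, 3 and 1 of 3 pairs of the same number. The Vegfa intervals were wider, at -0.87 to 0.85, -0.97 to 0.74 and -0.96 to 0.75, and those of Igf1 were -0.14 to 1.46, -0.27 to 1.29 and -0.54 to 1.00. These 5 genes had overlapping genotypes in every population. The difference of the genotype effect between populations was also tested: 0 members and 0 of all genes (0%) passed in each of the 3 interactions in edgeR and in DESeq2, where 233, 183 and 268 genes had an unadjusted p under 0.05. Among members these were Pdgfc alone, whose Ezr-KOm effect was lower in tnsIMs than in moMs by a log2 difference of -1.75 (adjusted p = 1) and lower in matIMs than in moMs by -1.66 (adjusted p = 1).

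The other question was how the members differ from moMs over tnsIMs to matIMs. From moMs to tnsIMs, 6 members rose in WT and 4 in Ezr-KOm and 0 fell, where 21.6% and 14.3% of all genes were called. From tnsIMs to matIMs, 1 member rose and 3 fell in WT, and 1 rose and 4 fell in Ezr-KOm, where 18.5% and 18.2% of all genes were called. Between matIMs and moMs, 3 members were higher and 2 lower in WT, and 3 were higher and 3 lower in Ezr-KOm, where 24.8% and 23.3% of all genes were called. The comparisons share libraries of the same population, so each member's values are given side by side.

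**Figure D4:**
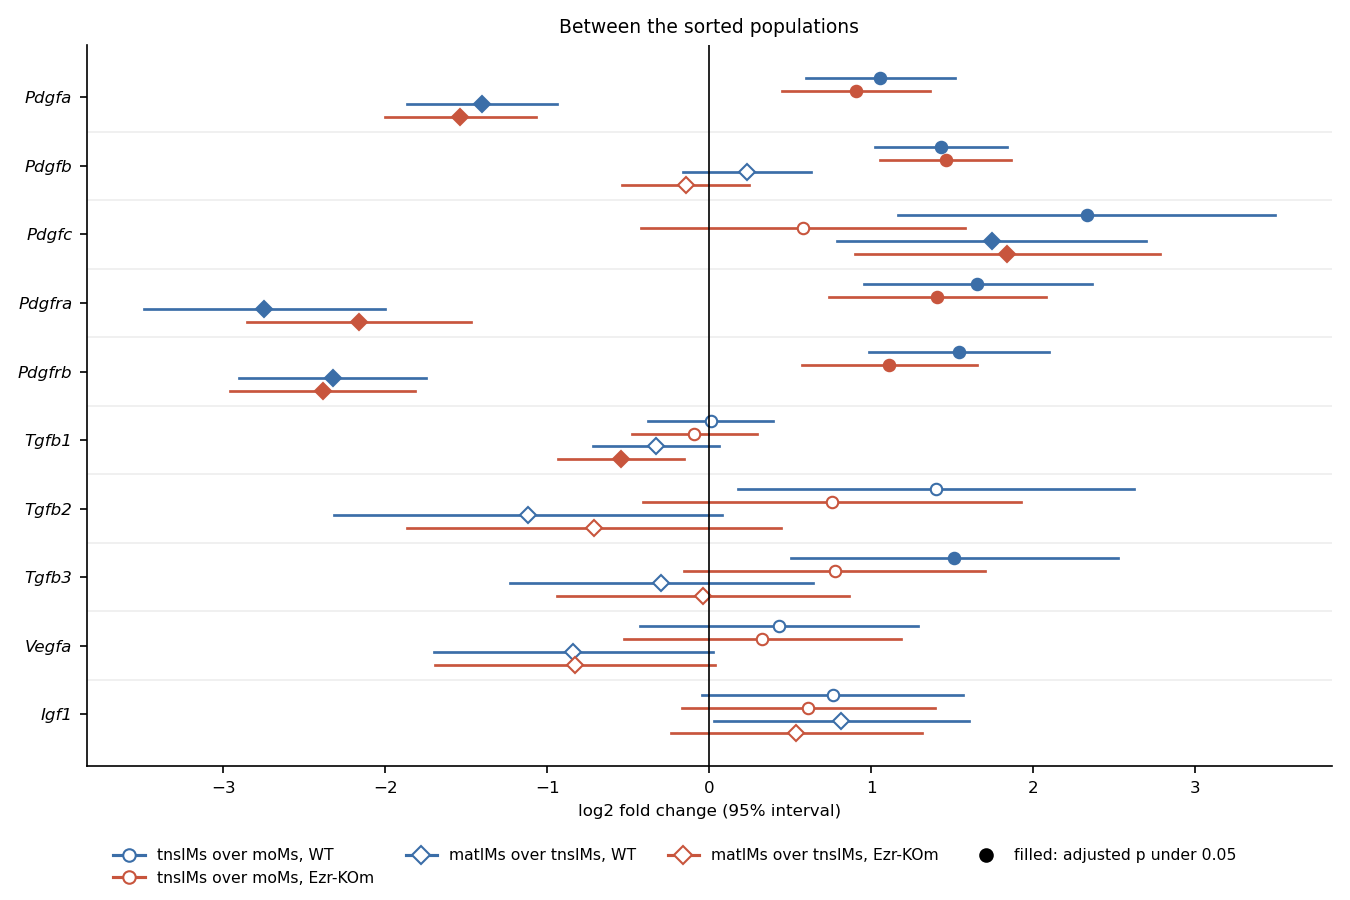
Log2 differences of the 10 genes between tnsIMs and moMs and between matIMs and tnsIMs, in WT and Ezr-KOm, with 95% intervals from edgeR, and filled points where the adjusted p was under 0.05. Pdgfa, Pdgfra and Pdgfrb have filled circles (tnsIMs over moMs) above 0 and filled diamonds (matIMs over tnsIMs) below 0, Pdgfb has filled circles alone, and Pdgfc has filled diamonds above 0.

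Both receptors and Pdgfa peaked in tnsIMs. Pdgfra rose from moMs to tnsIMs by 1.66 ± 0.34 in WT (adjusted p = 0.00153) and 1.41 ± 0.32 in Ezr-KOm (adjusted p = 0.00525), and fell to matIMs by 2.75 ± 0.36 (adjusted p = 1.7e-05) and by 2.16 ± 0.33, all on the log2 scale. The lowest tnsIM library of a genotype was above its highest moM library, and all matIM libraries were below all moM libraries of the same genotype. Pdgfrb libraries of WT tnsIMs were at 13.7, 11.3 and 23.3 CPM and those of Ezr-KOm tnsIMs at 13.7, 19.6 and 23.2 CPM, and WT and Ezr-KOm matIM libraries at 2.52 to 3.99 and 2.89 to 4.02 CPM. It rose by 1.54 ± 0.26 and 1.11 ± 0.26 (adjusted p = 0.000394 and 0.00612) and fell by 2.32 ± 0.27 and by 2.39 ± 0.27 on the log2 scale (adjusted p = 6.13e-06 in WT), without overlap.

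Below the moM level, the receptors in matIMs were less firm. Pdgfra fell from moMs to matIMs by 1.09 in WT on the log2 scale (adjusted p = 0.0313), a call lost without WT moM replicate 1 or 2 or WT matIM replicate 1 or 3 (adjusted p between 0.0668 and 0.106). In Ezr-KOm its value was -0.76 (adjusted p = 0.106), and with the mouse as a block it fell by 0.72 (adjusted p = 0.0418). Pdgfrb fell by 1.28 in Ezr-KOm (adjusted p = 0.00156) and by 0.79 in WT (adjusted p = 0.0414). The WT call of Pdgfrb was lost without any of the 3 WT moM libraries or without WT matIM replicate 2 or 3 (adjusted p between 0.0564 and 0.131), with upper-quartile factors or library totals in place of TMM (0.0529 and 0.0866) and with WT fitted alone (0.0647).

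Markers of stromal and vascular cells followed the same course. Among fibroblast markers, 7 of 10 rose from moMs to tnsIMs in WT and 7 fell from tnsIMs to matIMs (median log2 differences 1.69 and -2.17, against 0.01 and 0.04 over all genes). Among pericyte and smooth muscle markers 4 of 8 rose and 6 fell, and among endothelial markers 8 of 8 rose and 8 fell. At these WT steps 21.6% and 18.5% of all genes were called. Over WT moMs, tnsIMs and matIMs the summed pericyte markers were at 11.8 to 13.1, 20.4 to 33 and 5.01 to 7.56 CPM, with the pericyte gene Rgs5 at 0 in all 3 WT matIM libraries, and the summed endothelial markers at 55.7 to 82.6, 222 to 330 and 20.8 to 28.3 CPM. Epithelial markers were at 128 to 158, 2580 to 4230 and 544 to 595 CPM. Across the 18 libraries Pdgfrb had a Pearson correlation of log2 CPM of 0.94 with the summed endothelial markers, 0.92 with pericyte markers and 0.91 with fibroblast markers, and Pdgfra of 0.81, 0.84 and 0.83, a description over libraries that share populations, mice and depth. The part of RNA from these cells in the receptor levels was not tested.

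Pdgfa (ENSMUSG00000025856, chr5:138961769-138983125, minus strand), the ligand of PDGFR-alpha, was at 10.5, 10.2 and 10.8 CPM in WT moMs, 24.9, 19.9 and 20.8 CPM in WT tnsIMs and 9.58, 5.17 and 9.99 CPM in WT matIMs. Ezr-KOm libraries were at 8.33 to 11.6, 15.6 to 20.4 and 5.5 to 7.42 CPM. The tnsIM libraries were above all others of their genotype. Pdgfa rose by 1.06 ± 0.22 in WT and 0.91 ± 0.22 in Ezr-KOm (adjusted p = 0.00183 and 0.00764), and fell to matIMs by 1.40 ± 0.22 and by 1.54 ± 0.22 on the log2 scale (adjusted p = 0.000136 in WT). The rise in Ezr-KOm was lost without Ezr-KOm moM replicate 3 (0.83, adjusted p = 0.0514). From moMs to matIMs it fell by 0.63 in Ezr-KOm (adjusted p = 0.0462), a call lost without Ezr-KOm moM replicate 1 or 2 or Ezr-KOm matIM replicate 1 or 2 (0.065 to 0.211) and under upper-quartile factors (0.0841), library totals (0.131), no filter (0.0618) or a filter of 10 counts in every library (0.0633). Pdgfa shares 2552 exonic bases with the antisense gene 6330403L08Rik, which had up to 197 counts, and the strand used for counting is not given in the sources used here. The summed fibroblast and endothelial markers correlated with Pdgfa at 0.88 and 0.90, and their part was not tested.

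Pdgfb and Pdgfc took another course and stayed high in matIMs. Pdgfb (ENSMUSG00000000489, chr15:79880075-79899178, minus strand), the ligand that recruits pericytes, was at 6.66, 10.2 and 8.03 CPM in WT moMs, 19.1, 24.7 and 23.5 CPM in WT tnsIMs and 24.1, 26.7 and 28.3 CPM in WT matIMs. It rose from moMs to tnsIMs by 1.43 ± 0.19 in WT and 1.46 ± 0.19 in Ezr-KOm (adjusted p = 4.45e-05 and 5.72e-05) and did not pass between tnsIMs and matIMs (0.23 ± 0.19 and -0.15 ± 0.19). From moMs to matIMs it rose by 1.66 in WT and 1.31 in Ezr-KOm (adjusted p = 3.73e-06 in WT), and no library of moMs reached the lowest of tnsIMs or matIMs. Its correlation with the summed stromal and endothelial markers was low, between 0.00 and 0.14. It was 0.78 with the summed dendritic cell markers, 0.77 with the macrophage and sort markers and 0.72 with the epithelial markers. With the summed alveolar macrophage markers it was -0.87, but Chil3 alone averaged 5905 CPM of that sum (5270 to 6590 CPM) in WT moMs. Of these 8 markers, 6 were called higher and 1 lower in matIMs than in moMs in each genotype. In the same comparison, 3 of the 13 macrophage and sort markers were higher and 7 lower in WT, and 3 and 8 in Ezr-KOm. The part of cells with these markers in Pdgfb was not tested.

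Pdgfc rose at each step in WT. The 3 WT tnsIM libraries had 19 counts each, and the WT matIM libraries 56, 92 and 72 counts (2.48, 3.93 and 2.68 CPM). In Ezr-KOm it was at 16, 35 and 27 counts in tnsIMs and 76, 88 and 76 counts in matIMs. The log2 differences in WT were 2.33 ± 0.56 from moMs to tnsIMs (adjusted p = 0.00545), 1.74 ± 0.45 to matIMs (adjusted p = 0.00999) and 4.07 ± 0.54 from moMs to matIMs (adjusted p = 1.61e-05), the largest of any member. In Ezr-KOm they were 0.58 ± 0.48 (adjusted p = 0.488), 1.84 ± 0.45 (adjusted p = 0.00628) and 2.42 ± 0.47 (adjusted p = 0.000798). The WT values rest on few moM counts: without WT moM replicate 2 the differences from moMs were 3.24 and 4.95, and the step from tnsIMs to matIMs was lost without WT tnsIM replicate 3 or WT matIM replicate 2 (adjusted p = 0.0505 and 0.0584). Pdgfc correlated at 0.92 with the summed dendritic cell markers, 0.75 with the B cell markers and 0.70 with the macrophage and sort markers. Of the 13 macrophage and sort markers, however, 3 were called higher and 7 lower in matIMs than in moMs in WT, and 3 and 8 in Ezr-KOm. Of the B cell markers, 6 of 6 were called higher in matIMs than in moMs in both genotypes (median log2 differences 6.04 and 5.84). The part of these cells in the Pdgfc rise was not tested.

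Of the TGF-beta ligands, Tgfb1 (ENSMUSG00000002603, chr7:25386427-25404502, plus strand), the main isoform of immune cells, was close to level. WT libraries were at 331, 420 and 373 CPM in moMs, 492, 290 and 349 CPM in tnsIMs and 339, 275 and 287 CPM in matIMs, overlapping throughout. Ezr-KOm libraries were at 413 to 487, 347 to 463 and 237 to 342 CPM, with all matIM libraries below the others. In Ezr-KOm it fell to matIMs by 0.55 ± 0.19 from tnsIMs (adjusted p = 0.0468) and by 0.64 ± 0.19 from moMs (adjusted p = 0.0165) on the log2 scale, and in WT the values were -0.33 ± 0.18 and -0.32 ± 0.18 (adjusted p = 0.274 and 0.238). The first call was lost without Ezr-KOm tnsIM replicate 2 or 3 or Ezr-KOm matIM replicate 1 or 2 (0.0879 to 0.21) and under library totals (0.0741), no filter (0.0544) or 10 counts in every library (0.0539), and the second without Ezr-KOm moM replicate 1 (0.0729) or matIM replicate 2 (0.0923) and under library totals (0.0597).

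Tgfb2 (ENSMUSG00000039239, chr1:186354989-186438186, minus strand) and Tgfb3 (ENSMUSG00000021253, chr12:86103519-86125815, minus strand), isoforms better known from epithelium, muscle and stroma, were scarce. Tgfb2 had 4 to 48 counts a library and passed in no comparison. Its highest group was WT tnsIMs at 1.16 ± 0.213 CPM, against 0.429 ± 0.247 CPM in WT moMs (log2 difference 1.40, adjusted p = 0.0957). Tgfb3 rose from moMs to tnsIMs in WT by 1.51 ± 0.48 on the log2 scale (adjusted p = 0.0305), from 0.541 to 1.49 CPM. This call was lost without WT moM replicate 2 or 3 or WT tnsIM replicate 1 or 3 (adjusted p between 0.065 and 0.12) and with WT fitted alone (0.0817), and without WT moM replicate 1 the difference was 2.29. Tgfb3 shares 179 exonic bases with the antisense gene Ttll5, which had up to 269 counts.

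The genes that store and release latent TGF-beta included large population differences. Thbs1, thrombospondin, which activates the latent form, had mean levels of 3164 CPM (moMs), 1119 CPM (tnsIMs) and 218 CPM (matIMs) in WT and fell from moMs to matIMs by 3.86 ± 0.33 in WT and 3.98 ± 0.33 in Ezr-KOm on the log2 scale (adjusted p = 8.55e-08 and 5.8e-08). Lrrc32, the surface anchor GARP, rose from 7.77 over 21.5 to 38.3 CPM in WT (2.31 ± 0.27 from moMs to matIMs, adjusted p = 3.63e-06; 2.61 in Ezr-KOm). Itgb8, the beta subunit of an activating integrin, was called higher in matIMs at low levels (0.214 and 3.21 CPM in WT moMs and matIMs, 3.90 ± 0.77, adjusted p = 0.000883). Itgb6, an epithelial integrin subunit, and Ltbp4, a latent TGF-beta binding protein of the matrix, peaked in tnsIMs (0.493, 4.88 and 0.442 CPM, and 4.44, 21.1 and 2.66 CPM over the 3 WT populations), where the epithelial and fibroblast markers above were also highest. Of the 11 genes of latency and activation, 6 rose and 1 fell from moMs to tnsIMs in WT, 2 rose and 5 fell to matIMs (median log2 differences 1.06 and -0.35 against 0.01 and 0.04 over all genes), and 5 and 1, and 2 and 5, did so in Ezr-KOm. At these steps 21.6% and 18.5% of all genes were called in WT, and 14.3% and 18.2% in Ezr-KOm.

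The main receptors for TGF-beta had similar means in the 3 populations. Tgfbr1 and Tgfbr2, named after their values were seen, averaged 172, 186 and 173 CPM and 110, 98.1 and 101 CPM over WT moMs, tnsIMs and matIMs. Of the 5 receptors and co-receptors, Eng and Acvrl1, which endothelial cells express, rose from moMs to tnsIMs in WT (1.38 and 0.59, adjusted p = 0.000237 and 0.0209), and 0 were called between moMs and matIMs in either genotype. Smad6, an inhibitory Smad, went from 9.93 to 28 and 2.91 CPM in WT (1.49 ± 0.24, adjusted p = 0.00018, and -3.26 ± 0.26, adjusted p = 1.31e-07), and 3 of the 7 Smads and co-repressors were called between moMs and matIMs in WT, with Smad3 lower (-0.99) and Smad7 higher (0.69). Of 8 response genes, 1 rose and 3 fell from moMs to matIMs in WT: Pmepa1 rose by 1.78 ± 0.35, while Id3 fell by 1.01 and Tgfbi, a secreted matrix protein, by 0.61 on the log2 scale. Between moMs and matIMs in WT, 24.8% of all genes were called.

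Vegfa (ENSMUSG00000023951, chr17:46327919-46343295, minus strand) was abundant and varied with the library number in every group. Libraries 1, 2 and 3 were at 322, 201 and 121 CPM in WT moMs, 402, 291 and 174 CPM in WT tnsIMs and 227, 161 and 97 CPM in WT matIMs. Ezr-KOm libraries 1, 2 and 3 were at 286, 236 and 117 CPM in moMs, 320, 287 and 194 CPM in tnsIMs and 198, 169 and 83.5 CPM in matIMs. Number 1 was the highest and number 3 the lowest in all 6 groups, by 1.65 to 2.67 times. This order in all 6 groups was shown by 34 of the 15811 genes tested (0.215%), and the labels do not say what the number stands for beyond a replicate.

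Without the number, Vegfa passed in no population comparison (adjusted p between 0.194 and 0.669). With the mouse as a block it passed in all 6: from moMs to tnsIMs it rose by 0.46 ± 0.12 in WT and 0.40 ± 0.12 in Ezr-KOm (adjusted p = 0.00702 and 0.0223), from tnsIMs to matIMs it fell by 0.84 ± 0.12 and 0.90 ± 0.12 on the log2 scale (adjusted p = 4.38e-05 and 2.42e-05), and from moMs to matIMs it fell by 0.38 ± 0.12 and 0.50 ± 0.12 (adjusted p = 0.0197 and 0.00361). Libraries of the same number moved in these directions in 3 of 3 pairs of each comparison. In WT the ratio of matIMs to tnsIMs was 0.554 to 0.564 over the 3 numbers.

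**Figure D5:**
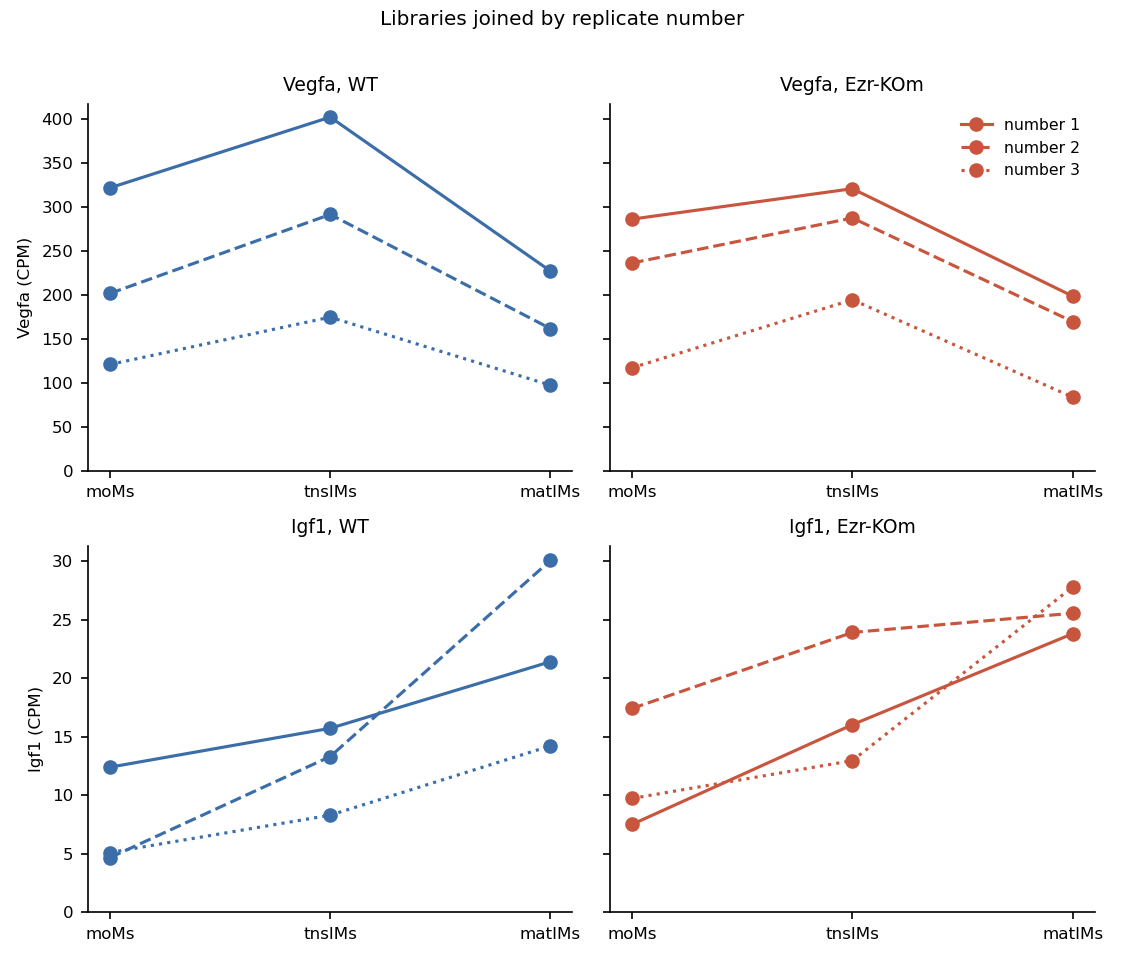
Vegfa and Igf1 in CPM over moMs, tnsIMs and matIMs, with the libraries of the same number joined by a line, in WT and Ezr-KOm. The Vegfa lines run in parallel with number 1 at the top and number 3 at the bottom, and the Igf1 lines climb to matIMs.

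Of the 9 other VEGF ligands and receptors, 5 rose from moMs to tnsIMs in WT and 4 fell to matIMs, against 2 and 3 in Ezr-KOm. Over all genes, 21.6% and 18.5% were called at these steps in WT, and 14.3% and 18.2% in Ezr-KOm. Kdr, the main VEGF receptor of endothelium, averaged 18.8, 51.4 and 25.4 CPM over the WT populations (1.45 ± 0.28 up, adjusted p = 0.00108, and -1.01 ± 0.28, adjusted p = 0.0137). The endothelial markers above also peaked in tnsIMs. In matIMs, however, their sum lay below that of moMs, while the Kdr mean did not. Vegfb rose from moMs to matIMs by 2.04 ± 0.37 in WT and Pgf by 1.18 ± 0.35 (adjusted p = 0.000375 and 0.0173). The 10 hypoxia-inducible genes did not move together: between moMs and matIMs 1 rose and 4 fell in WT and 2 rose and 5 fell in Ezr-KOm. In these comparisons 24.8% and 23.3% of all genes were called. Adm, the vessel peptide adrenomedullin, rose from 0.895 to 8.32 CPM in WT (3.26 ± 0.55, adjusted p = 0.000219), and Bnip3 fell by 0.86 on the log2 scale (adjusted p = 0.00624).

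Igf1 (ENSMUSG00000020053, chr10:87694127-87772904, plus strand) rose from moMs to matIMs. WT libraries were at 12.4, 4.68 and 5.12 CPM in moMs, 15.7, 13.3 and 8.31 CPM in tnsIMs and 21.4, 30.1 and 14.2 CPM in matIMs. Ezr-KOm libraries were at 7.53, 17.4 and 9.74 CPM, 16, 23.9 and 13 CPM, and 23.8, 25.6 and 27.8 CPM. Every matIM library was above every moM library of its genotype, while tnsIMs overlapped moMs and matIMs in both genotypes. Igf1 rose from moMs to matIMs by 1.58 ± 0.39 in WT (adjusted p = 0.00487) and 1.15 ± 0.38 in Ezr-KOm (adjusted p = 0.032), the latter lost without Ezr-KOm moM replicate 1 or 3 or without any of the 3 Ezr-KOm matIM libraries (adjusted p between 0.0576 and 0.133). With the mouse as a block, both steps also passed in WT, from moMs to tnsIMs by 0.79 ± 0.28 (adjusted p = 0.0428) and on to matIMs by 0.84 ± 0.27 (adjusted p = 0.0309), against adjusted p = 0.171 and 0.159 without it. Igf1 correlated at 0.78 with the summed platelet markers, which were at 30.2 to 42.1 CPM in WT moMs and 52.1 to 91.1 CPM in WT matIMs. Of the 7 platelet markers only 3 were tested, and 0 were called between matIMs and moMs in either genotype. Igf1 correlated at 0.75 with the summed dendritic cell markers and -0.74 with the summed alveolar macrophage markers, a sum led by Chil3 in WT moMs. Of the 8 alveolar macrophage markers, 6 were called higher and 1 lower in matIMs than in moMs in each genotype. The part of these cells was not tested.

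Around Igf1, 9 genes of the IGF system were tested. From moMs to tnsIMs 4 rose and 1 fell in WT, where 21.6% of all genes were called. From tnsIMs to matIMs 7 fell and 0 rose in WT (median log2 difference -1.22 against 0.04 over all genes), and 6 fell and 0 rose in Ezr-KOm. At this step 18.5% and 18.2% of all genes were called. Igfbp7, a binding protein made by endothelium, was at 10.7, 46.1 and 6 CPM in WT (2.10 ± 0.26, adjusted p = 2e-05, and -2.95 ± 0.27, adjusted p = 5.45e-07), and Insr, the insulin receptor, fell from moMs to matIMs by 1.47 ± 0.26 on the log2 scale (adjusted p = 0.000296). Between genotypes Igfbp3, the main IGF carrier of plasma, had log2 differences of 1.70, 1.63 and 1.32 in moMs, tnsIMs and matIMs at low levels (0.604 and 2.00 CPM in WT and Ezr-KOm moMs), with adjusted p = 0.874, 0.965 and 1.

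Of the 14 further growth factors of repair, 1 was called higher and 4 lower in matIMs than in moMs in WT, and 2 and 5 in Ezr-KOm. The shares of all genes called in these comparisons were 24.8% and 23.3%. Hgf, hepatocyte growth factor, fell from moMs to matIMs by 2.27 ± 0.36 in WT and by 1.79 ± 0.35 in Ezr-KOm (13.96 and 2.88 CPM in WT), Osm, oncostatin M, by 1.00 ± 0.18 and by 1.35 ± 0.18 (1782 and 888 CPM in WT), and Grn, progranulin, by 0.73 ± 0.15 in WT on the log2 scale (adjusted p = 0.000109, 0.000411 and 0.00103 in WT). Bmp4 and Pdgfd, products of stroma and endothelium, rose from moMs to tnsIMs in WT (3.21 and 2.10) and fell to matIMs (by 2.89 and by 4.47), with WT means of at most 3.81 and 2.87 CPM. Between genotypes 0 genes passed in any of the 8 pathway lists, whose 73 tested genes included Areg, amphiregulin (57.8 and 100.1 CPM in WT and Ezr-KOm moMs, log2 difference 0.79, and 65 and 120 CPM in tnsIMs, 0.89, adjusted p = 1 in both), Bmp4 (1.14 in moMs, adjusted p = 1) and Ltbp4 (0.94 in moMs, adjusted p = 0.756). The 8 TGF-beta response genes had positive differences in 8, 8 and 7 cases over the 3 populations, and 0 of them passed. Their medians were 0.23, 0.34 and 0.34, against 0.00225, 0.00203 and -0.00139 over all genes tested. The 3 populations of a genotype came from the same 3 mice, and 8, 9 and 8 of the 10 fibroblast markers were positive as well. In moMs the response genes led with Ccn2 (1.36 and 2.61 CPM, log2 difference 0.93, adjusted p = 1).

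The genes with levels most like each member over the 18 libraries were named by the Pearson correlation of log2 CPM, as a description that depends on the measure. By Spearman's rho 1 to 3 of a member's 3 genes were the same, and on deviations from the group means 7 of the 10 members shared none. Pdgfrb was closest to Ly6c1 (0.98), Cdh5 (0.97) and Lyve1 (0.97), of which Cdh5 is a junction protein of endothelium, and Pdgfra to Lox (0.96), Gpx3 and Ccn5 (0.94 each), of which Lox crosslinks collagen. Pdgfa was closest to Tmem252 (0.95), Pdgfb to Stap2 (0.95), and Pdgfc to Mvp, Ank and Cd209b (0.94 each). Tgfb1 was closest to Ier3 (0.90), Zc3h12a (0.88) and Tgfbi (0.87), Vegfa to Phlda1 (0.93), and Igf1 to Fndc10 (0.89). For the scarce Tgfb2 and Tgfb3 the nearest were Hspg2 (0.82) and Fmnl2 (0.87). Among the members themselves the highest values were 0.86 for Pdgfa with Pdgfrb, 0.84 for Pdgfra with Pdgfrb and 0.80 for Pdgfb with Pdgfc.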

How the data were processed

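Bulk RNA-seq of moMs, tnsIMs and matIMs from WT and Ezr-KOm lungs, 3 libraries per group, was analyzed from the deposited table of whole-number gene counts. Per the labels and the study's methods, RNA was amplified with SMART-Seq v4 and sequenced paired-end, and the authors aligned reads with STAR 2.7.9a to GRCm39, counted reads on Gencode genes and normalized nothing in the deposited counts. The strand column they counted is not given in the sources used here. Total counts were 16512783 to 48460995 per library and their number limits the precision of scarce genes.

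Counts were fitted with edgeR 4.0.16 in R 4.3.3: filterByExpr on the 6 groups (smallest count 10) left 15811 of 21254 genes, TMM factors were used, and a quasi-likelihood model of the 6 groups over all 18 libraries gave two-sided tests, adjusted by Benjamini-Hochberg over all genes tested. A gene was called at an adjusted p under 0.05. Errors of log2 differences are standard errors, and those of CPM and RPKM are SDs. CPM used TMM-scaled totals, RPKM the merged exon length of a Gencode annotation of the same build, and correlations log2 CPM with a prior count of 2.

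Alternatives were DESeq2 1.42.0, other normalizations and filters, a robust fit, each genotype fitted alone, a replicate block, and leaving out each library. The scripts were tested on simulated counts. The numbers in the labels were taken to pair the libraries of a genotype, from the stated 3 mice per genotype. Blocking on the number between genotypes has no such stated basis. The correlation of deviations from the group means was 0.0905 to 0.397 between populations for libraries of the same number and genotype (-0.295 to 0.0316 for other numbers), and 0.102 to 0.316 between genotypes (-0.238 to 0.0508). WT and Ezr-KOm libraries of a number are different mice.

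The members and gene lists were chosen with earlier results of these data known. All members are named, with at most 3 genes of each list per comparison by smallest p, and the 3 genes most correlated with each member, of which the text gives those closest. Genes outside this rule are marked as chosen after their values were seen, except cell markers, which are named where they bear on a member.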

Additional observations from a re-analysis of the deposited data

How the results depend on the processing

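Of the counts of members called, those between Ezr-KOm and WT in matIMs went from 0 to 1 with DESeq2 and to 1 with the replicate block on the number, Pdgfra in both, and the cause was not tested. Those between matIMs and tnsIMs in Ezr-KOm went from 5 to 3 with at least 10 counts in every library, a filter that left 7 members. Leaving out a library gave 3 to 4 members between matIMs and moMs in WT (5 with all libraries, 3 without WT moM replicate 2 or WT matIM replicate 3) and 3 to 5 in Ezr-KOm (6 with all, 3 without Ezr-KOm moM replicate 1 or Ezr-KOm matIM replicate 2). Of the other counts of members under an alternative, 179 stayed within 1.5 times. Genotype differences near 0 turned their sign: Vegfa in moMs with the block (0.0020), Tgfb2 in tnsIMs with the block (-0.04 to 0.03), and, over left-out libraries, Vegfa between -0.30 and 0.40 in moMs, -0.38 and 0.23 in tnsIMs and -0.37 and 0.24 in matIMs, Tgfb1 between -0.012 and 0.42 in tnsIMs and -0.20 and 0.052 in matIMs, and Igf1 between -0.0020 and 0.54 in matIMs. No called difference changed direction under any alternative run. The replicate block added the calls of Pdgfra, Vegfa and Igf1 given above and changed no other call of a member, and it raised the number of genes called between populations, for instance to 4747 from 3411 between tnsIMs and moMs in WT. Of the RPKM levels, 41 moved by more than 1 SD with the longest transcript in place of merged exons and 19 did not. The low counts of Pdgfc, Tgfb2 and Tgfb3 limit what these libraries can show of them.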
